A study of Mus musculus with 8 samples.

Results

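Membrane proteins of the tetraspanin family were followed here in mouse oligodendrocyte progenitor cells (OPCs) and in the oligodendrocytes (OLs) made from them. The genes were *Tspan2*, *Tspan4*, *Tspan18* and *Cd82*, taken by symbol as 4 of the 10987 transcripts in the table of expression values. They were picked because earlier results on these same libraries showed them higher in OLs, so their differences between OLs and OPCs are given as descriptions without a test. Another 14 tetraspanins are in the table and served as the family background.

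OPCs were derived from epiblast stem cells of 129S/SvEv mice and grown on poly-L-ornithine and laminin in DMEM/F12 with N2 Max, B27, bFGF and PDGFA. OLs came from such OPCs after 2 passages without bFGF and then 3 days on the same base medium with noggin, IGF-1, cyclic AMP, NT3 and T3 (thyroid hormone). Each group held 2 cultures, and the lysate of each culture, pooled from several dishes, gave a total RNA library (RNA-seq) and a library of the mRNA fragments protected by ribosomes (footprints), 8 libraries in all. The groups are therefore OPC RNA-seq, OPC footprints, OL RNA-seq and OL footprints, with n = 2 each, and no labels say that the 2 cultures came from separate mice, so the spread between them may be partly technical. The lysis buffer held emetine, an inhibitor of elongation, and footprints were cut out with micrococcal nuclease (MNase), an enzyme with a base preference.

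Tetraspanins cross the membrane repeatedly and carry a small and a large extracellular loop. They act mainly by binding other membrane proteins (integrins, immunoglobulin superfamily proteins, metalloproteases) and by gathering them, together with cholesterol and palmitoylated tails, into membrane microdomains. Myelin is a membrane rich in such proteins, and several tetraspanins are known from oligodendrocytes.

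The family signature is a Cys-Cys-Gly run in the large extracellular loop, whose cysteines form disulfide bonds. An in-frame Cys-Cys-Gly was found in the coding sequence of all 18 listed tetraspanins, and 5 of the 18 held 2. The stretches below show that run in the 4 genes (GRCm38 genome, Gencode vM21 models, 27 bases of the spliced coding strand, 5′ to 3′), with the 9 bases of the Cys, Cys and Gly codons in capitals.

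Tspan2: gcatttcagTGCTGTGGAaaagaaagc

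Tspan4: gatttccgaTGCTGTGGAgtttccaat

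Tspan18: acatttggcTGCTGTGGGgtcaacgga

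Cd82: caggtcaagTGCTGTGGCtgggtcagc

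All 4 used the same pair of Cys codons, TGC and TGT, and differed in the Gly codon, which was GGA in *Tspan2* and *Tspan4*, GGG in *Tspan18* and GGC in *Cd82*. The capitals lie at codons 151 to 153 of 221 in *Tspan2* (exon 6, chr3:102760903-102760911, plus strand) and at codons 147 to 149 of 238 in *Tspan4* (exon 6, chr7:141491780-141491788, plus strand). They lie at codons 147 to 149 of 248 in *Tspan18* (exon 7, chr2:93209962-93209970, minus strand) and at codons 149 to 151 of 266 in *Cd82* (exon 8, chr2:93420741-93420749, minus strand). *Tspan2* and *Tspan18* carried an earlier run as well, at codon 77 and codon 73.

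The transcripts that the table lists lie at chr3:102734529-102772292 for *Tspan2* (ENSMUST00000029451, plus strand, 8 exons, 4484 bases), at chr7:141475240-141493427 for *Tspan4* (ENSMUST00000026585, plus strand, 8 exons, 1466 bases), at chr2:93204247-93227786 for *Tspan18* (ENSMUST00000028646, minus strand, 9 exons, 1203 bases) and at chr2:93419111-93462502 for *Cd82* (ENSMUST00000028644, minus strand, 10 exons, 1824 bases). *Tspan18* and *Cd82* sit on the same strand of chromosome 2, with 191324 bases between the listed transcripts.

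Levels are given in FPKM (fragments per kilobase, scaled to the mapped fragments of a library), over the whole transcript for RNA-seq and over the coding sequence (CDS) for footprints. From the smallest steps in the values, the aligned bases behind the table were estimated at 77.9 to 241 Mb (megabases) for the RNA-seq libraries and 93.0 to 249 Mb for the footprint libraries, with OL replicate 2 the shallowest of both kinds; these estimates, and the read numbers taken from them below, could be off by a factor of 2. Between 9.48% and 18.2% of transcripts are listed at 0 in an RNA-seq library and between 14.7% and 31.1% in a footprint library. Such a 0 can be a failed estimate: the RNA-seq value of *Gusb*, a common reference gene, is 0 for OPC replicate 2 and OL replicate 2 although it had 1.19 and 3.56 FPKM in the other RNA-seq libraries. The summed RNA-seq level of 8 listed oligodendrocyte markers was 34.3 and 37.0 FPKM for OPCs but 3751 and 3275 FPKM for the cells labelled OLs. The 6 listed OPC markers summed to 1023 and 890 FPKM for OPCs and to 1460 and 1499 FPKM in OLs, so their total was not lower in the cells labelled OLs. Of these, *Olig1* (693 and 571 against 735 and 686 FPKM) and *Ptprz1* (209.7 and 238 against 203 and 247.7 FPKM) made up most of the sum and did not pass (limma adjusted p = 0.469 and 0.984), while *Gpr17* was higher in OLs (8.38 and 4.91 against 221 and 271 FPKM, adjusted p = 4.42e-04), as were *Sox10*, *Lhfpl3* and *Pdgfra* (53.5 and 31.3 against 105.5 and 100.6 FPKM, adjusted p = 0.0158). Of other cell types, *Csf1r* (microglia) and *Rgs5* (pericytes) stayed below 0.1 FPKM in every library. *Csf1r* was the only one listed of 7 microglia and leukocyte markers, and *Rgs5* of 5 endothelium and pericyte markers. None of 4 fibroblast markers is listed. The 5 listed neuron markers summed to 124 and 111 FPKM in OPC RNA-seq against 161 and 172 FPKM in OL RNA-seq. Most of that sum was *Map2*, and of the neuron list *Tubb3* was higher in OLs (18.5 and 12.3 against 40.5 and 42.3 FPKM, limma adjusted p = 0.00867). The 4 listed astrocyte markers summed to 223 and 170 against 302 and 226 FPKM, a total made up mostly of *Aldoc* (209 and 159.5 against 235 and 186.5 FPKM). Other markers of this list were higher in OLs together with the 4 genes, namely *Slc1a2* (13.5 and 10.6 against 47.6 and 36.5 FPKM, limma adjusted p = 0.00416) and, with no test because it averaged 1 FPKM only through OLs, *Gfap* (0.155 and 0 against 14.2 and 2.11 FPKM). The part of those cells in the values below was not tested, and in these bulk lysates more cells that express a gene and more RNA per cell cannot be told apart.

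*Tspan4*, which other systems know for its part in forming migrasomes on the trailing fibres of moving cells, was the most abundant of the 4. RNA-seq gave it 26.5 FPKM in OPC culture 1 and 19.3 FPKM in OPC culture 2, and 764 FPKM and 927 FPKM in OL cultures 1 and 2. Footprints gave 53.2 FPKM and 54.5 FPKM for OPCs, then 1193 FPKM and 1785 FPKM for OLs. The groups were far apart in both kinds of library, and *Tspan4* was the only one of the 4 with footprints in OPCs. The ratio of the OL mean to the OPC mean was 36.9 in RNA-seq, with 28.8 between the 2 cultures of replicate 1 and 48.0 between those of replicate 2. In footprints it was 27.6, with 22.4 and 32.8 by replicate. In OL RNA-seq *Tspan4* ranked 19th and 13th from the top of the 10987 transcripts, and in OL footprints 71st and 27th, against 2228th and 3007th in OPC RNA-seq.

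*Tspan2*, a tetraspanin of myelinating glia that has been linked to the stability of myelin, was near the lower end of the table in OPCs and high in OLs. In OPC RNA-seq it stood at 1.08 and 0.892 FPKM, an estimated 39 and 22 reads of 30 bases, and in OL RNA-seq at 94.4 and 64.9 FPKM. OPC footprints are listed at 0 in both cultures, and OL footprints reached 280.6 and 250.2 FPKM. The OL to OPC ratio of mean RNA-seq levels was 80.8, the highest of the 3 genes with RNA-seq values above 0, and was 87.4 in replicate 1 and 72.8 in replicate 2. No ratio is given for footprints because the OPC values are listed at 0. A 0 in both OPC footprint libraries is not rare at such RNA levels: of 68 transcripts at 0.8 to 1.2 FPKM in both OPC RNA-seq libraries, 12 (17.6%) have it.

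*Cd82*, known as a suppressor of metastasis that restrains growth factor receptors and integrins at the surface, followed the same order at lower levels. RNA-seq of OPCs held 0.733 and 0.468 FPKM of it, an estimated 11 and 5 reads, and RNA-seq of OLs 20.8 and 17.0 FPKM. OPC footprints are again listed at 0 in both cultures, against OL footprints of 80.4 and 69.6 FPKM. The ratio of mean RNA-seq levels was 31.4, with 28.3 in replicate 1 and 36.2 in replicate 2, and it rests on the few reads of the OPC libraries. Among 138 transcripts at 0.4 to 0.8 FPKM in both OPC RNA-seq libraries, 29 are likewise listed at 0 in both OPC footprint libraries.

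*Tspan18*, studied mostly in endothelium as a partner of the calcium channel protein Orai1, stood apart from the others. Its RNA-seq is listed at 0 in all 4 libraries and its footprints at 0 in both OPC cultures, but OL footprints were 9.19 and 6.64 FPKM, an estimated 49 and 15 reads. Footprints without RNA are uncommon in the table. Of 294 transcripts listed at 0 in all 4 RNA-seq libraries, 16 had footprints in both OL cultures, and only *Tspan18* and *Gm21987* reached 5 FPKM in both. *Gm21987*, unlike *Tspan18*, also had 223 and 187.7 FPKM of footprints in OPCs. The gene has a longer coding transcript (chr2:93201760-93334487), which shares all 744 coding bases with the listed one, but only 967 of its 1203 exonic bases. Footprints were counted on the CDS, where the models do not differ, and RNA-seq on the whole transcript, where they do; the part of this in the zeros was not tested.

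**Figure D1:**
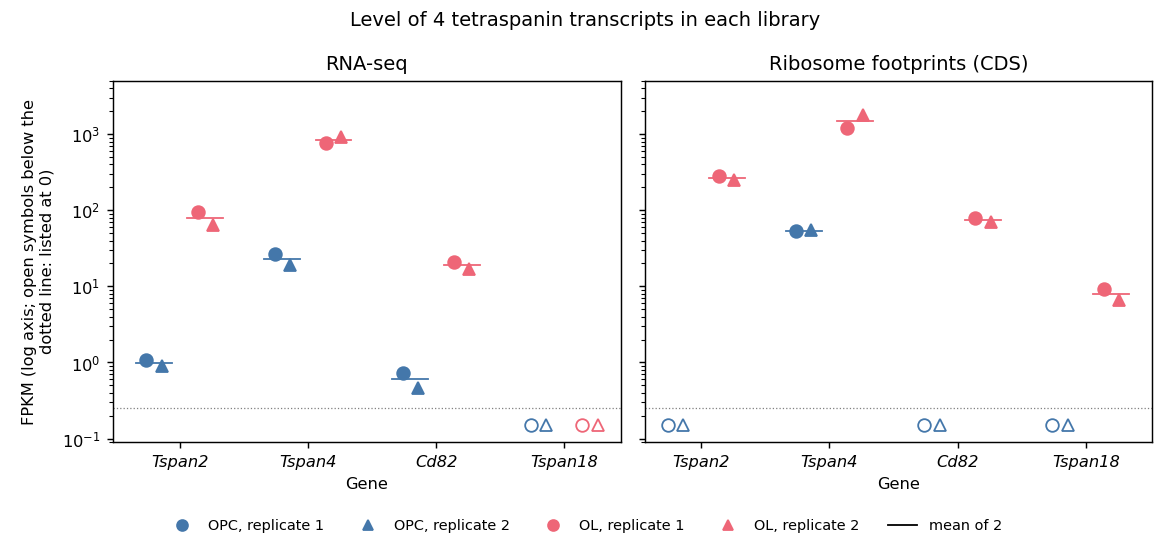
FPKM of the 4 genes in each RNA-seq library (left) and footprint library (right) on a log axis, with a circle for replicate 1, a triangle for replicate 2 and a line for the mean of 2. The genes were picked as higher in OLs, so nothing is read from the OL values of *Tspan2*, *Tspan4* and *Cd82* lying above their OPC values. Open symbols under the dotted line are values listed at 0, among them all RNA-seq values of *Tspan18*.

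Within OLs the footprint levels ran from *Tspan4* (1193 and 1785 FPKM) through *Tspan2* (280.6 and 250.2) and *Cd82* (80.4 and 69.6) to *Tspan18* (9.19 and 6.64), and no neighbours in this order overlapped. In OL RNA-seq *Tspan4*, *Tspan2* and *Cd82* kept that order. On the log2 scale of FPKM + 0.1, the difference of OLs from OPCs in RNA-seq fitted by limma was 6.18 (SE 0.29) for *Tspan2*, 5.21 (SE 0.21) for *Tspan4* and 4.78 (SE 0.39) for *Cd82*, the 39th, 67th and 90th highest of 8346 transcripts that averaged at least 1 FPKM. For footprints of *Tspan4* it was 4.76 (SE 0.22), the 184th of 8342. A difference on this scale understates the change of a gene with a low level. Over all transcripts 13.0% were called higher in OLs in RNA-seq and 20.2% lower, and in footprints 12.8% higher and 10.8% lower (limma, adjusted p under 0.05); these shares are given for the genes tested further on, and nothing is read from them for the 4 genes chosen on this contrast. Of all listed transcripts, 56 (0.510%) share the footprint pattern of *Tspan2* and *Cd82*, with 0 in both OPC cultures and at least 5 FPKM in both OL cultures, and *Tspan18* is also among them.

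The study asked how codon use and ribosomes shape gene output in the 2 cell types, and ribosome density, the footprint FPKM divided by the RNA-seq FPKM of the same culture, describes the load of ribosomes per mRNA. *Tspan2* had a ribosome density of 2.97 and 3.85 in the OL cultures, above 73.4% and 82.5% of transcripts there. *Cd82* had 3.87 and 4.10, above 86.1% and 84.7%. The other tetraspanins with a density in OLs also lay above the median of all transcripts there, except *Tspan12*, *Tspan17* and *Tspan33*. Among them *Cd9* lay above 95.6% and 98.2% of transcripts and *Cd81* above 88.2% and 88.8%. *Tspan4* had 1.56 and 1.93 in OLs, against culture medians of 2.02 and 1.95, so its very high footprint level in OLs went with a density near the middle of all transcripts. In OPCs *Tspan4* had 2.01 and 2.82 against medians of 1.72 and 1.77. The fitted change of its log2 density was −0.45 (SE 0.34), while the median over all transcripts was 0.10. No density can be formed for *Tspan18*, and the density of *Tspan2* and *Cd82* in OPCs would rest on footprints listed at 0.

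**Figure D2:**
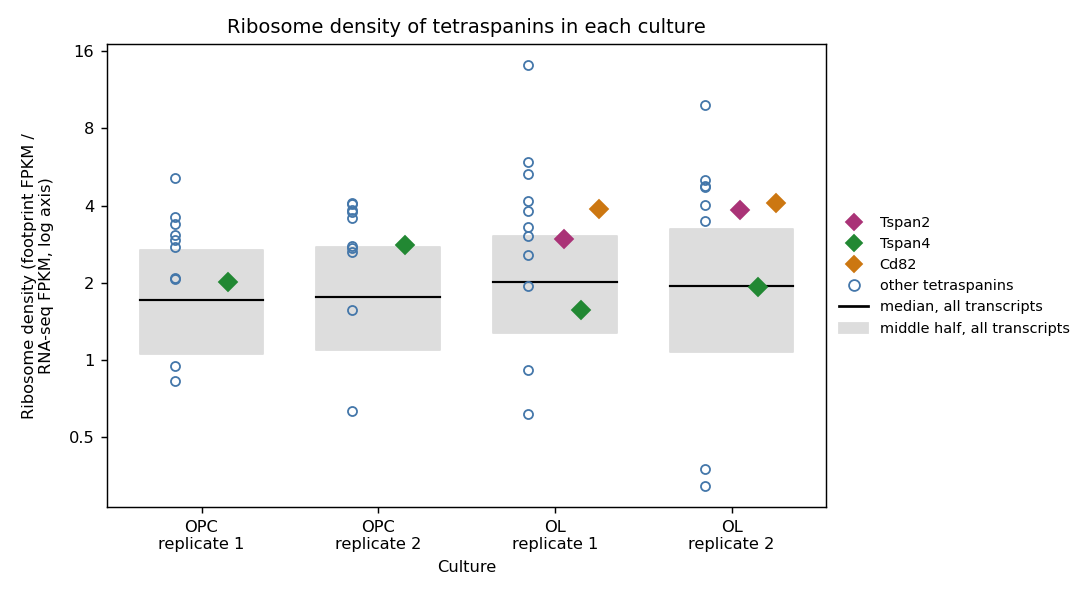
Ribosome density (footprint FPKM over RNA-seq FPKM, log axis) in each culture, with a diamond for each of 3 genes, open circles for the other tetraspanins with both values above 0, a line for the median of all transcripts and a grey box between their quartiles. In OLs *Tspan2* and *Cd82* lie above the median of about 2 and *Tspan4* at or below it, as in the values of 1.56 and 1.93.

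The codons compared in the study are UUU against UUC for phenylalanine and AAA against AAG for lysine, and the 4 genes did not share one pattern. UUU made up 0.611 of the Phe codons of *Tspan2* (11 of 18), 0.353 of *Tspan4*, 0.333 of *Tspan18* and 0.176 of *Cd82*, against a median of 0.429 over all listed transcripts. AAA made up 0.4 of the Lys codons of *Tspan2* and 0.133 of *Cd82*. *Tspan4* and *Tspan18* held no AAA codon at all, with 9 and 6 AAG codons, where the median share was 0.368. The other 14 tetraspanins ranged from 0.0625 to 0.75 for UUU and from 0 to 0.667 for AAA, so the 4 genes lay inside the range of their family. The 4 genes had more Phe and Cys codons than most transcripts. Phe was 6.39% to 10.9% of their codons and Cys 4.51% to 5.46%, against medians of 3.60% and 1.94% for all listed transcripts, and *Tspan18* had more Phe than 99.9% of them. Over the other 14 tetraspanins Phe ran from 2.71% (*Tspan10*) to 10.1% and Cys from 3.89% to 6.33%.

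**Figure D3:**
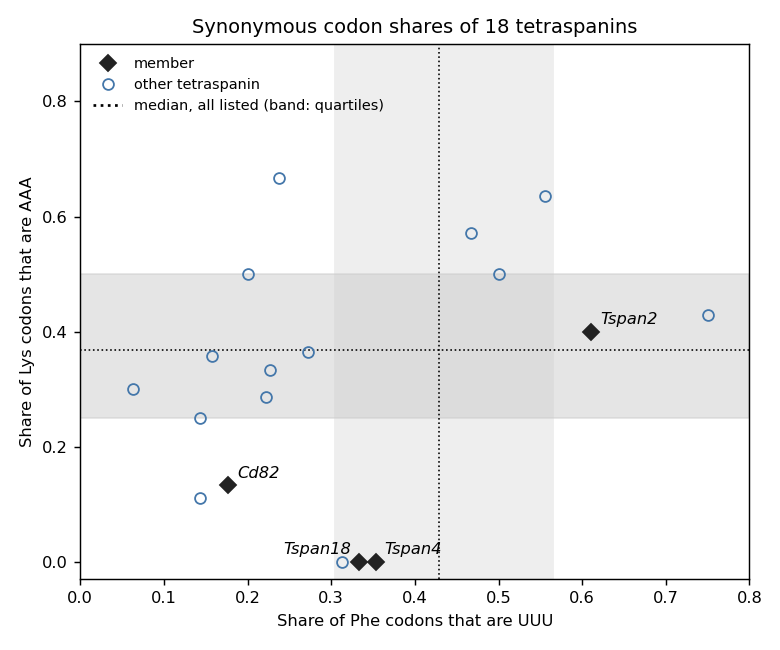
Share of Phe codons that are UUU against share of Lys codons that are AAA in the 18 listed tetraspanins, with diamonds for the 4 genes, dotted lines for the medians of all listed transcripts and bands for their quartiles. *Tspan4* and *Tspan18* lie at an AAA share of 0, *Cd82* at low values of both, and *Tspan2* at 0.611 and 0.4.

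The rest of the family shows whether a rise was general. Of the 14 other tetraspanins, 11 were high enough to be tested in RNA-seq (a mean of at least 1 FPKM). Of these, 4 were higher in OLs, 1 was lower and 6 did not pass (limma, adjusted p under 0.05). Over all tested transcripts 13.0% were called higher and 20.2% lower. The median log2 difference was −0.06 where all tested transcripts had −0.23. In footprints 12 reached a mean of at least 1 FPKM. *Tspan10* and *Tspan17* did so only through OLs and are listed at 0 in both OPC cultures, so no test is given for them. Of the other 10, 4 were higher, 1 was lower and 5 did not pass, with a median of 0.20 against −0.17 for the 8116 transcripts above 0 in both groups, of which 12.3% were called higher and 10.5% lower. With *Tspan10* and *Tspan17* kept in, the fit called 6 higher and 1 lower of 12, and no result is read from the calls of these 2. The footprint counts under alternatives below are out of these 12, not out of the 10. For a change in ribosome density none of 10 passed (limma; *Tspan17* again left out), and 1 of the 10, *Tspan14*, had an unadjusted p under 0.05. Among all 8056 transcripts 1 (0.0124%) passed, and none of the 7879 above 0 in both groups, 343 of which had an unadjusted p under 0.05. These counts depended on single libraries: without OPC replicate 1 or OPC replicate 2 the RNA-seq count of 5 became 2 either way and the footprint count of 7 of 12 became 0, without OL replicate 2 the footprint count was 4, and without OL replicate 1 the density count was 2. The balance moved too: RNA-seq gave 4 higher and 3 lower with a pseudocount of 1, which adds *Tspan9* (adjusted p = 0.0255) and *Tspan12* (0.0399) to the lower ones, 2 higher and 3 lower without OL replicate 1 and 2 of each without OL replicate 2, and footprints 5 higher and 4 lower without OL replicate 1.

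*Cd9*, an adhesion-associated tetraspanin long known from oligodendrocytes and myelin, had the largest footprint difference among the other tetraspanins with OPC footprints above 0. RNA-seq levels of 36.9 and 53.7 FPKM (OPCs) stood against 221.7 and 231.8 FPKM (OLs), and footprint levels of 189.1 and 202 FPKM against 1307 and 2279 FPKM. It rose by 2.35 on the log2 scale in RNA-seq (SE 0.21, limma adjusted p = 0.00154) and by 3.14 in footprints (SE 0.30, adjusted p = 0.00863), less than *Tspan4* in fitted difference on the same scale. Its close relative *Cd81* was the family's highest in OPCs, with 423 and 469 FPKM in RNA-seq, and reached 853 and 806 FPKM in OLs. The differences for *Cd81* were 0.90 in RNA-seq (SE 0.16, adjusted p = 0.00988) and 1.15 in footprints (SE 0.20, adjusted p = 0.0269). In OLs *Tspan4* (764 and 927 FPKM) and *Cd81* (853 and 806 FPKM) overlapped in RNA-seq, while *Cd81* had more footprints, 3539 and 3842 FPKM. *Tspan7*, a regulator of receptor traffic at synapses, rose from 89.8 and 78.7 to 152 and 125 FPKM in RNA-seq (0.71, SE 0.17, adjusted p = 0.0259) and by 1.02 in footprints (SE 0.13, adjusted p = 0.0143). Without the variance trend of the fit both calls of *Tspan7* (adjusted p = 0.0885 and 0.0644) and the footprint call of *Cd81* (0.0752) were lost.

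The listed tetraspanins known to escort the metalloprotease Adam10 to the surface are *Tspan5*, *Tspan10*, *Tspan14*, *Tspan17* and *Tspan33*, and these 5 did not move together. *Tspan17* had 3.97 and 1.82 FPKM in RNA-seq of OPCs, then 37.2 and 26.4 FPKM in that of OLs, a rise of 3.49 on the log2 scale (SE 0.42, limma adjusted p = 0.00337). Footprints of *Tspan17* are listed at 0 for both OPC cultures, with 22.9 and 8.48 FPKM for OLs. *Tspan5* fell, from 23.0 and 19.6 to 5.97 and 3.15 FPKM in RNA-seq (−2.27, SE 0.36, adjusted p = 0.00718) and from 63.3 and 70.1 to 15.3 and 14.9 FPKM in footprints (−2.13, SE 0.17, adjusted p = 0.00702). *Tspan14* rose in footprints, from 51.4 and 63.5 to 109.5 and 116 FPKM (0.98, SE 0.16, adjusted p = 0.0228, and 0.0759 without the variance trend), and its RNA-seq difference of 0.34 (SE 0.18) did not pass (adjusted p = 0.191). *Tspan10* is listed at 0 in OPC footprints and had 7.69 and 7.65 FPKM in OLs. Its RNA-seq is listed at 0 in both OPC cultures and in OL replicate 2, with 2.78 FPKM in OL replicate 1. *Tspan33* passed in neither kind of library (adjusted p = 0.298 in RNA-seq and 0.522 in footprints). The sign of both its differences turned without OL replicate 2, from −2.48 to 0.24 in RNA-seq and from −2.19 to 1.01 in footprints. Without OL replicate 1 they were −5.21 and −5.39. *Adam10* itself fell by 0.72 on the log2 scale in RNA-seq (SE 0.17, adjusted p = 0.0228), and its footprint difference of −0.28 (SE 0.17) did not pass (adjusted p = 0.305).

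In *Tspan9* the values of RNA and footprints lay in opposite directions. OPC RNA-seq showed 7.96 and 7.73 FPKM and OL RNA-seq 2.52 FPKM and a value listed at 0, while footprints stood at 16.7 and 21.5 FPKM for OPCs and 35.6 and 24.0 FPKM for OLs. The RNA-seq difference did not pass (limma adjusted p = 0.0861, and 0.0187 with the replicate number as a block), nor did that in footprints (adjusted p = 0.214) or the change in ribosome density (adjusted p = 0.875). On the log2 scale the RNA-seq difference of −3.96 depended on single cultures. It was −6.31 without OL replicate 1 and −1.60 without OL replicate 2. *Tspan12*, a co-receptor part in Norrin signalling, had 60.1 and 91.5 FPKM in OPC RNA-seq and 46.0 and 40.0 FPKM in OLs (−0.79, SE 0.24, adjusted p = 0.0503, and 0.0248 with the block). *Tspan6* (adjusted p = 0.151 in RNA-seq) and *Tspan11* (adjusted p = 0.929) did not pass in either kind, *Tspan11* changed sign with a culture left out, and *Tspan1* and *Upk1a* were too low to be tested, at or below 0.551 FPKM in every library. Of 32 family names looked for, the other 14, among them *Cd63*, *Cd151* and *Tspan3*, were not analysed here.

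**Figure D4:**
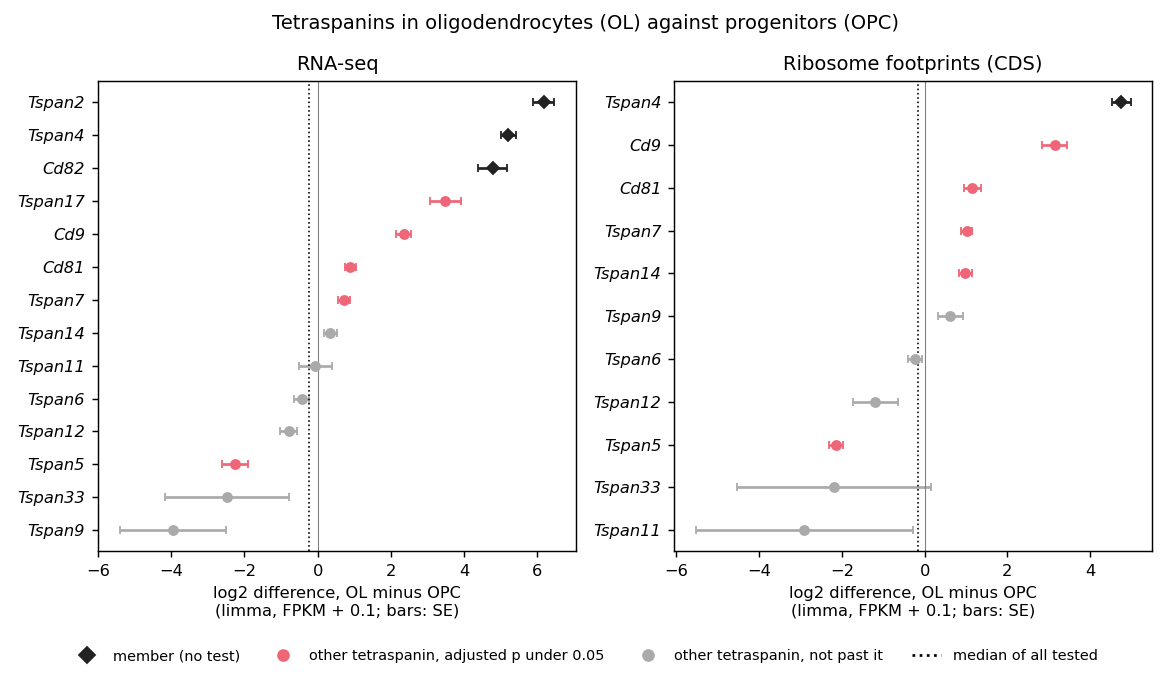
Fitted log2 difference (OL minus OPC, FPKM + 0.1) with its standard error for tetraspanins that averaged at least 1 FPKM and were above 0 in both groups, in RNA-seq (left) and footprints (right). Diamonds are the genes chosen on this contrast and carry no test, red circles passed an adjusted p of 0.05, grey circles did not, and the dotted line is the median of all tested transcripts; *Tspan2* (6.18), *Tspan4* (5.21) and *Cd82* (4.78) lie to the right of *Tspan17* (3.49) and *Cd9* (2.35) in RNA-seq.

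Proteins that tetraspanins are known to bind or be modified by were taken as a list of 20, of which 16 are in the table and 13 were tested in each kind of library. In RNA-seq 4 were higher, 5 lower and 4 did not pass, with a median of −0.20 (all tested −0.23). Over all tested transcripts 13.0% were called higher and 20.2% lower there. In footprints 4 were higher, 1 lower and 8 did not pass, with a median of 0.04 (all tested −0.16). The shares over all tested transcripts were 12.8% higher and 10.8% lower in footprints. Without OPC replicate 1 the counts were 3 in RNA-seq and 0 in footprints, and without OPC replicate 2 they were 2 and 0. With a pseudocount of 1 footprints gave 4 higher and 3 lower. The balance in footprints turned with libraries left out, to 3 higher and 4 lower without OL replicate 1 and to 1 higher and 3 lower without OL replicate 2. *Cldn11*, *Igsf3*, *Igsf8* and *Zdhhc2* were the higher ones in both kinds of library. *Cldn11*, the tight junction protein of myelin, went from 0.518 and 1.88 FPKM in OPC RNA-seq to 169 and 95.9 FPKM in OLs (6.85, SE 0.59, limma adjusted p = 0.00134). *Igsf3* and *Igsf8*, immunoglobulin superfamily partners, rose by 2.94 (SE 0.35, adjusted p = 0.00320) and 0.80 (SE 0.20, adjusted p = 0.0290) in RNA-seq. *Zdhhc2*, an enzyme that palmitoylates tetraspanins, rose by 1.40 (SE 0.19, adjusted p = 0.00498) in RNA-seq and 1.80 (SE 0.28, adjusted p = 0.0208) in footprints. *Lgals1*, *Egfr*, *Cd44*, *Itga6* and *Adam10* fell in RNA-seq, the first by 3.73 on the log2 scale and in footprints by 4.54. The RNA-seq call of *Itga6* was lost under median-ratio scaling (adjusted p = 0.0697) and without the variance trend (0.0662), and without the trend so were those of *Adam10* (0.0737) and *Igsf8* (0.0820) and the footprint calls of *Igsf8* (0.0766) and *Zdhhc2* (0.0570). The shared beta-1 integrin *Itgb1* had 188 and 226 FPKM in OPC RNA-seq and 171 and 188 FPKM in OLs, and did not pass (adjusted p = 0.377).

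The listed start of *Tspan4* lies 107 bases from the start of *Polr2l*, a subunit shared by the RNA polymerases, which is read in the opposite direction. Both genes were higher in OLs. *Polr2l* had 29.7 and 31.4 FPKM in OPC RNA-seq and 110.9 and 142.5 FPKM in OLs, a rise of 2.04 on the log2 scale (SE 0.18, limma adjusted p = 0.00150), and 2.11 in footprints (SE 0.16, adjusted p = 0.00644). The bases between them are shown because each gene starts at one of their edges (GRCm38, chr7:141475133-141475239, strand of *Tspan4*, 5′ to 3′):

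Tspan4 and Polr2l: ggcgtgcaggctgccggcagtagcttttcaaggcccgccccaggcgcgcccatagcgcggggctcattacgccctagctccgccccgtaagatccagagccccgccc

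G and C made up 71.0% of this stretch. The letter strings below were searched for on both strands in the 250 bases before the listed start of each of the 4 genes, namely ACAAAG and AACAAT (SOX factors), CAGCTG (an E box), AGGTCA (a nuclear receptor site), CTGGCAC (MYRF) and TATAAA, and none was present in any of the 4 windows. Among the same windows of all 10987 listed transcripts they occurred in 12.7%, 6.24%, 11.6%, 10.4%, 3.96% and 7.69%, in that order, so the absence of these letters is common and says nothing of the factors. At its other end the last 292 of the 1466 bases of *Tspan4* overlap *Chid1* on the opposite strand, outside the CDS. *Chid1* had 9.75 and 14.4 FPKM in OPC RNA-seq and 9.46 and 9.79 FPKM in OLs, and did not pass (−0.30, SE 0.27, adjusted p = 0.433). Next to *Tspan18*, *Trp53i11* fell by 2.13 on the log2 scale in RNA-seq (SE 0.16, adjusted p = 9.34e-04).

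The transcripts most like each gene were found as the smallest distance over the 8 libraries, on log2 values centred within each kind of library, among 8056 transcripts that averaged at least 1 FPKM in both kinds. *Tspan2* was most like *Pcp4*, a calmodulin regulator (distance 0.90), *Tmem88b* (1.49) and *Sema3e* (1.97). *Pcp4* had 1.77 and 1.28 FPKM in OPC RNA-seq, 88.6 and 68.4 FPKM in OL RNA-seq, and footprints listed at 0 in OPCs and at 474 and 241 FPKM in OLs. *Tspan4* was most like *Tcp11l2* (0.65), then *Gm7903* and *Gm5128* (0.85 each), which have identical values in every library and cannot be told apart. *Cd82* was most like *Apod*, a lipid-binding secreted protein (1.32), *Cpm* (1.51) and *Nfe2l3* (1.53). All of these were themselves listed at 0 in OPC footprints except *Tcp11l2*, which had 17.1 and 13.9 FPKM there and 560 and 615 FPKM in OLs. *Tspan18* was not compared because it has no RNA-seq values above 0.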

How the data were processed

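RNA-seq and ribosome footprints of 2 OPC and 2 OL cultures (8 libraries) were read from 1 table of deposited FPKM values. The authors clipped adapters (reads of at least 18 bases kept), aligned to GRCm38 with HISAT2 (2.1.0) and obtained FPKM with StringTie (1.3.5) and ballgown on canonical coding transcripts of Gencode vM9, over transcripts for RNA-seq and over the CDS for footprints; no use of strand is stated. All 8 value columns were used. FPKM are not counts, so log2(FPKM + 0.1) was fitted with limma (3.58.1, R 4.3.3; trended variances) for transcripts averaging 1 FPKM or more in that kind of library, and p-values were adjusted over all of them (Benjamini-Hochberg, two-sided, threshold 0.05). The change in ribosome density was fitted as an interaction term over both kinds of library. That fit took the 8 libraries as separate samples, with no term for the culture that an RNA-seq and a footprint library share. An exact permutation test of 2 against 2 cannot go below p = 0.333 and was not used.

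The 4 genes, the family and partner lists and the letter strings were chosen with earlier results of these data known. Named are the 4 genes, all listed tetraspanins, partners past the threshold and the 3 most alike transcripts per gene; *Itgb1* and the genes next to the 4 were added beside these. Aligned bases were estimated from the step size of the lowest 1500 values per library. Sequences and codons were read from the GRCm38 genome with Gencode vM21, which held all 10987 transcript IDs. Alternatives were a fit with the replicate number as a block, pseudocounts of 0.01 and 1, no minimum, a minimum of 5 FPKM, median-ratio scaling, no variance trend, and leaving out each culture. Tested on simulated data with 200 changed transcripts, the RNA-seq fit recovered 0, 72 and 140 at log2 changes of 1, 2 and 3, the footprint fit 0, 28 and 112, and the density fit 1, 86 and 132, with 4, 19 and 31 false calls in the density fit; with no changed transcript the density fit made 5 calls, all false, and the other fits 0.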

Additional observations from a re-analysis of the deposited data

How the results depend on the processing

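The number of other tetraspanins past the threshold was 5 in RNA-seq and 5 of 10 in footprints, and that of partners 9 and 5. The alternatives below keep *Tspan10* and *Tspan17*, both listed at 0 in OPC footprints, except where such transcripts were left out. With these 2 kept in, the main footprint count to compare with is 7 of 12, and no result is read for them. Without the variance trend the counts for tetraspanins were 4 in RNA-seq and 4 in footprints, and those for partners 6 and 3. With a pseudocount of 1 the counts were 7 for tetraspanins in RNA-seq and 7 for partners in footprints, each with 3 lower in OLs in place of 1. With 1 culture left out, where the lone sample is assumed to vary like the other group, the counts ranged from 2 to 5 (tetraspanins, RNA-seq), from 0 to 9 (tetraspanins, footprints), from 0 to 2 (tetraspanins, density, highest without OL replicate 1), from 2 to 7 (partners, RNA-seq) and from 0 to 7 (partners, footprints); each footprint count of 0 came from leaving out either OPC culture. The cause was not tested. The study's methods call the OL cultures the ones corresponding to the OPC replicates without saying that the numbers match them, and departures from the group means correlated weakly between equal numbers (Pearson 0.108 in RNA-seq, 0.086 in footprints), so the samples are taken to share only a number. With the replicate block, tetraspanins past the threshold numbered 7 in RNA-seq, where *Tspan12* (limma adjusted p = 0.0248) and *Tspan9* (0.0187) were added. In footprints they numbered 6 of 12, and the difference from the main fit was *Tspan10*, for which no test is given. No other call of the listed tetraspanins and partners changed with the block. In all, 6 values changed sign, all of them short of the threshold: *Tspan11* in RNA-seq under median-ratio scaling (0.11), without OPC replicate 2 (0.10) and without OL replicate 2 (0.24), *Tspan33* in RNA-seq (0.24), and in footprints *Tspan11* (0.76) and *Tspan33* (1.01), each without OL replicate 2. With cultures left out, *Tspan11* ranged from −0.36 to 0.24 in RNA-seq and from −6.58 to 0.76 in footprints, and *Tspan33* from −5.21 to 0.24 and from −5.39 to 1.01. Of the other single-gene results under the alternatives, 313 kept their direction and side of the threshold, 72 lost it and 11 gained it. Partners entered this tally only where they passed in the main fit, so they could lose a call there but not gain one. The footprint values of *Tspan10* and *Tspan17* are in the tally too, and no result is read from them. Of the values of the 4 genes 41 stayed within the spread of the cultures. The exceptions were the RNA-seq difference at a pseudocount of 1 (5.32 for *Tspan2*, 3.63 for *Cd82*) and the OL density of *Cd82* under median-ratio scaling (3.78). That scaling moved the median RNA-seq difference of all transcripts from −0.23 to −0.05. Leaving out transcripts listed at 0 in a whole group, chosen after seeing the data, gave 5 tetraspanins in footprints and moved no other count. The OPC values of *Tspan2* and *Cd82* and the footprints of *Tspan18* rest on few reads.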
